A study of Mus musculus with 8 samples.

Results

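BCL2 family and caspase genes were examined in TM3 cells, a mouse cell line derived from Leydig cells, which make testosterone in the testis. The 9 genes were chosen by name, with earlier results of these data known. They were Bcl2l1, Mcl1, Bax, Bak1, Bid, Casp8, Apaf1, Cycs and Xiap, and all 9 were found among the 12404 genes of the count table. TM3 cells exposed to bisphenol A (BPA), a plastics monomer with estrogen-like activity, were set against normal TM3 cells in RNA-seq and MeRIP-seq data; MeRIP-seq recovers RNA fragments that carry N6-methyladenosine (m6A) with an antibody. The labels name 2 MeRIP and 2 RNA-seq libraries of BPA cells and as many of normal cells, and they give neither the dose and duration of BPA nor the vehicle of the normal cells. They do not say whether replicates were separate cultures, so p-values may reflect only technical spread between the libraries at hand.

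Genes of this family decide whether a cell starts to dismantle itself. In the mitochondrial route, BH3-only proteins such as BID relay a death signal to the effectors BAX and BAK, which open the outer mitochondrial membrane unless anti-apoptotic proteins such as BCL-xL (Bcl2l1) and MCL1 hold them back. Cytochrome c (Cycs) then leaves the mitochondrion and joins APAF1 in the apoptosome, which activates caspase-9 and, through it, the executioner caspases, while XIAP binds and inhibits these caspases. In the death receptor route caspase-8 is activated at the cell membrane and can cleave BID, which joins the routes. Most of this control acts on proteins, which were not measured here.

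The count table held 8813870 and 6305121 reads in the BPA RNA-seq libraries and 10455643 and 7517482 reads in the normal ones. Despite these similar totals the BPA libraries stood apart, with medians of 15 and 2 reads a gene, against 233 and 150 for normal cells. Genes at 0 numbered 4086 and 4676 in BPA, against 2877 and 2207 in normal cells. The low BPA counts of Apaf1, Casp9, Bmf, Bnip3 and Traf2 given below go with these values, and the part of this library difference in them was not tested. Gene levels are given as counts-per-million (CPM) of library sizes scaled by TMM, a normalization that trims genes with extreme ratios. CPM is not corrected for transcript length, so levels were compared between libraries and not between genes. Paired values of a condition are those of its replicate 1 and its replicate 2. Of 11 Leydig cell markers, Scarb1 and Tspo had rows in the table, and the defining genes Star, Cyp11a1, Cyp17a1 and Hsd3b1 are not analysed here. Those 2 Leydig markers summed to 232 and 73.3 CPM in BPA, against 40.7 and 23.9 CPM in normal cells. The 3 Sertoli cell markers with rows, of 6 listed, summed to 280 and 135 CPM in BPA libraries and 155 and 296 CPM in normal libraries. Cd68, the 1 of 4 macrophage markers with a row, had 20.2 and 81.5 CPM in BPA libraries and 0 and 7.57 CPM in normal libraries, and the 2 smooth muscle markers of 3 (Des and Acta2) summed to 58.2 and 237 CPM in BPA libraries and 6.93 and 45.1 CPM in normal libraries. Of 6 germ cell markers Stra8 alone had a row, with 0 and 5.61 CPM in BPA libraries and 0 in both normal libraries, and none of 3 endothelial markers had one. Whether these marker levels have a part in the results below was not tested, and in bulk RNA fewer cells of a type and less RNA per cell cannot be told apart.

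The sequences upstream of the start sites are shown for 3 of the genes, because Mcl1 had the most reads of the 9, Apaf1 had the largest difference between BPA and normal cells, and Cycs had the most covered m6A peak. They are the 250 bases before the start in RefSeq, build GRCm38.p6, read 5′ to 3′ on the gene's own strand. The Mcl1 window is chr3:95658471-95658720 on the plus strand, the Apaf1 window chr10:91082744-91082993 on the minus strand and the Cycs window chr6:50566570-50566819 on the minus strand. Capitals mark matches on either strand to the Sp1-type GC box (GGGCGG), the CCAAT box (CCAAT) or the cAMP response element (TGACGTCA), which do not overlap each other here.
Mcl1: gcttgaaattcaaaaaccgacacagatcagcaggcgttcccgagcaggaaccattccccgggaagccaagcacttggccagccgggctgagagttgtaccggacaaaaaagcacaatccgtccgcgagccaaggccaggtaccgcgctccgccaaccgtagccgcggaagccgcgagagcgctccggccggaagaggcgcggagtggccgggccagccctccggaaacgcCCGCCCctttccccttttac
Apaf1: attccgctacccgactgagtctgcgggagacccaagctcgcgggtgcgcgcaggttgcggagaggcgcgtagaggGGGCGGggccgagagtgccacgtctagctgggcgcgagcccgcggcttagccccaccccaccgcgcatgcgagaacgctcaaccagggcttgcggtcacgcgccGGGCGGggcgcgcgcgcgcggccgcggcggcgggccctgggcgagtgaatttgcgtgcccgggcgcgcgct
Cycs: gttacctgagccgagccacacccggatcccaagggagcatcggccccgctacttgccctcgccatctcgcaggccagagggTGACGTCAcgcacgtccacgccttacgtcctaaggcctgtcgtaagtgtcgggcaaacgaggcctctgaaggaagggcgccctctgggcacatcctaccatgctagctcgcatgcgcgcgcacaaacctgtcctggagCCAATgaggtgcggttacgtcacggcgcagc
All 9 genes had at least 1 such window, and Bcl2l1 and Xiap had 3 each for alternative starts. The GC box was present for 5 of 9 genes, against 32.7% of the 32851 windows of that length in the table, and the CCAAT box for 2 of 9, against 33.8%. Gene figures count a match in any window of a gene, whereas the percentages count single windows, so they are unlike measures. The cAMP response element was found for Cycs alone, against 1.55% of windows. The palindromic estrogen response element, with GGTCA and TGACC 3 bases apart, was found for none of the 9 and in 0.0639% of windows, so its absence from these windows is the common case. These matches describe letters and are not evidence of binding.

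The first comparison asked which of these genes differed in RNA level between BPA-exposed and normal cells. Apaf1 had far fewer reads in both BPA libraries than in either normal library. For the other 8 genes the conditions overlapped, and Cycs, Bid, Bax and Casp8 were nearly absent from 1 BPA library but not from the other. None of the 9 passed an adjusted p of 0.05 in edgeR's quasi-likelihood test, which called 0 of the 8645 genes tested (0.00%), the smallest adjusted p being 0.329. All 9 genes passed the filter on low counts. At an unadjusted p under 0.05 edgeR had 0 of the 9 genes and 14.0% of all tested genes, and DESeq2 had 1, Apaf1, against 12.9% of all. At an adjusted p of 0.05 DESeq2 had none of the 9, against 3.08% of all tested genes. The groups did not overlap for 1 of the 9 genes, against 40.0% of all tested genes. With 1 normal library left out, edgeR had none of the 9 at an adjusted p of 0.05 or at an unadjusted p under 0.05. The shares of all tested genes there were 0.0231% and 0.729% without replicate 1 and 0.0463% and 1.69% without replicate 2. With 1 BPA library left out none of the 9 passed after adjustment, as for all tested genes (0.00%). At an unadjusted p under 0.05 there were then 3 of the 9 (Casp8, Apaf1 and Cycs) without BPA replicate 1, where 33.3% of all tested genes passed, and 2 (Bax and Apaf1) without BPA replicate 2, where 24.1% passed.

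**Figure D1:**
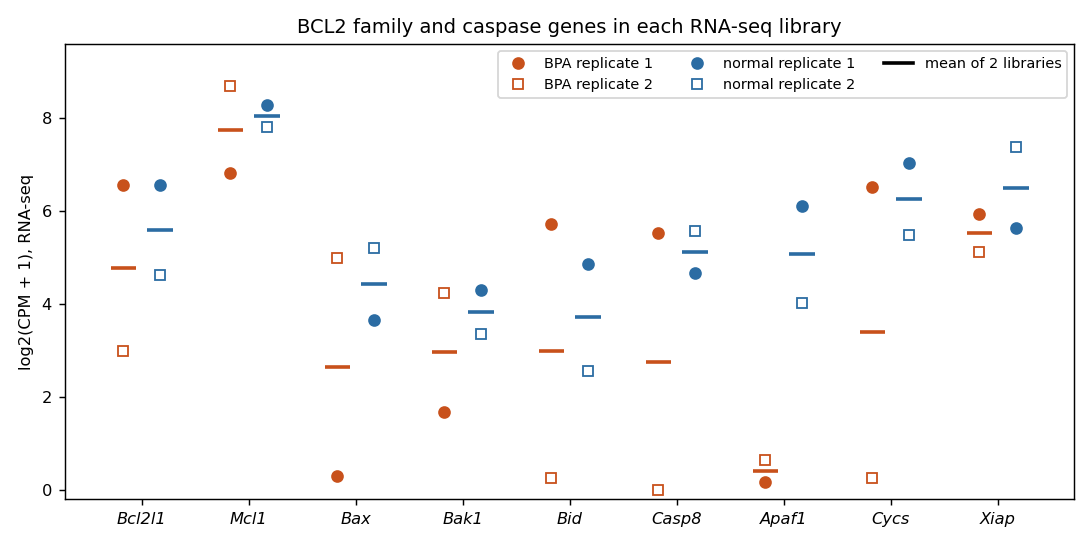
Level of each of the 9 genes as log2(CPM + 1) in the RNA-seq libraries, with BPA (orange) left of normal (blue), replicate 1 as filled circles, replicate 2 as open squares and a bar at the mean of the 2 log2 values. Apaf1 is the one gene whose BPA libraries, at 0.116 and 0.561 CPM, both lie below both normal libraries, at 67.9 and 15.3 CPM.

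Apaf1 (ENSMUSG00000019979, chromosome 10) encodes the scaffold of the apoptosome. BPA replicates 1 and 2 held 1 and 3 of its reads, against 784 and 119 for normal replicates 1 and 2. Both BPA libraries were thus near 0, while the normal libraries stood 4.45-fold apart from each other. The mean was 0.338 ± 0.314 CPM in BPA and 41.6 ± 37.3 CPM in normal cells (SD, n = 2 each). Summed over replicates and scaled by depth, BPA reads were 0.00614 of normal reads (exact 95% interval 0.00167 to 0.0158). That interval covers counting error alone and leaves out the spread between replicates. No molecular identifiers tell repeated reads of 1 molecule apart, so it may be too narrow even for counting error. The log2 fold change was -6.91 ± 2.91 (SE) with an adjusted p of 0.401 in edgeR and 0.0945 in DESeq2. The negative direction held in each of the 9 other settings that could be fitted, with log2 values from -8.33 to -5.41 when 1 library was left out. A pattern of at most 10 reads in both BPA libraries and at least 100 in both normal libraries was shared by 764 of the tested genes, or 8.84%. Ikbip, whose span overlaps that of Apaf1 in RefSeq, had 1848 and 332 reads in BPA, against 476 and 570 in normal cells. Strand use in the counting was not given in the sources used here, and reads of overlapping genes may not be fully separable. The RefSeq spans of Bcl2l1, Bak1 and Bid also overlap those of other genes (Cox4i2, Ggnbp1 and Gm17812), which are not analysed here.

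Cycs (ENSMUSG00000063694, chromosome 6), which encodes somatic cytochrome c, had 783 and 1 reads in BPA, against 1511 and 339 in normal cells. BPA replicate 1 lay between the normal libraries, at 91.0 CPM against 131 and 43.5 CPM, and BPA replicate 2 lay far below them at 0.187 CPM. The BPA libraries were 487-fold apart and the normal libraries 3.01-fold, and the log2 fold change was -0.93 ± 2.34 (SE, edgeR adjusted p = 0.9998). Without BPA replicate 2 the value was 0.06, and without BPA replicate 1 it was -8.75. Cycs has processed pseudogenes of near-identical sequence, so its counts are uncertain.

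Of the anti-apoptotic genes, Mcl1 (ENSMUSG00000038612, chromosome 3) had 958 and 2226 reads in BPA, against 3564 and 1738 in normal cells. At 111 and 416 CPM the BPA libraries lay on either side of the normal ones, at 309 and 223 CPM. Its mean was 264 ± 215 CPM in BPA and 266 ± 60.8 CPM in normal cells (SD, n = 2 each), with a log2 fold change of -0.01 ± 0.75 in edgeR (SE, adjusted p = 0.9998). That standard error is the smallest of the 9 genes and still leaves room for a change of either sign. Bcl2l1 (ENSMUSG00000007659, chromosome 2), which encodes BCL-xL, had 799 and 37 reads in BPA, against 1075 and 183 in normal cells. One library of each condition was near the same level, at 92.9 CPM in BPA and 93.2 CPM in normal cells, and the other was lower, at 6.91 CPM in BPA and 23.5 CPM in normal cells. The log2 fold change was -0.22 ± 1.81 (SE, edgeR adjusted p = 0.9998).

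Both effectors were sparse in BPA replicate 1. Bax (ENSMUSG00000003873, chromosome 7) had 2 and 165 reads in BPA, against 133 and 281 in normal cells, or 0.232 and 30.8 CPM against 11.5 and 36.0 CPM. BPA replicate 2 lay within the normal range and BPA replicate 1 far under it. Bak1 (ENSMUSG00000057789, chromosome 17) had 19 and 96 reads in BPA, against 217 and 72 in normal cells, or 2.21 and 17.9 CPM against 18.8 and 9.23 CPM, with the same arrangement. Their log2 fold changes were -0.61 ± 2.73 and -0.48 ± 2.14 (SE), each with an adjusted p of 0.9998 in edgeR. Without BPA replicate 1 they were 0.38 and 0.36, and without BPA replicate 2 they were -6.60 and -2.66.

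The ratio of Bax to Bcl2l1 reads, a pair in which an effector is set against an inhibitor, was 0.00250 in BPA replicate 1 and 4.46 in BPA replicate 2, against 0.124 in normal replicate 1 and 1.54 in normal replicate 2. Both normal values lay between the BPA values, so the conditions overlapped. The ratio of Bax to Mcl1 was 0.00209 and 0.0741 in BPA, against 0.0373 and 0.162 in normal cells, again with overlap. These ratios are of raw reads and were compared between libraries only.

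Bid and Casp8, which meet in the death receptor route, were nearly absent from BPA replicate 2. Bid (ENSMUSG00000004446, chromosome 6) had 443 and 1 reads in BPA, against 326 and 38 in normal cells, or 51.5 and 0.187 CPM against 28.2 and 4.87 CPM. The BPA libraries thus held both the highest and the lowest value. It was the 1 gene of the 9 with a positive log2 fold change, 0.64 ± 2.87 (SE, edgeR adjusted p = 0.9998), which was -6.36 without BPA replicate 1. Casp8 (ENSMUSG00000026029, chromosome 1) had 386 and 0 reads in BPA, against 282 and 363 in normal cells. BPA replicate 1, at 44.9 CPM, lay between the normal libraries at 24.4 and 46.6 CPM. The 0 reads of BPA replicate 2 allow a level of up to 0.561 CPM, taking 3 counts as the floor for 1 library. The log2 fold change was -0.66 ± 2.96 (SE, edgeR adjusted p = 0.9998), and without BPA replicate 2 it was 0.34.

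Xiap (ENSMUSG00000025860, chromosome X) had 518 and 180 reads in BPA, against 560 and 1295 in normal cells. The levels were 60.2 and 33.6 CPM in BPA and 48.5 and 166 CPM in normal cells, with normal replicate 2 the highest and the other 3 libraries closer together. Among the 9 genes its BPA libraries were the closest to each other, at 1.79-fold. Its log2 fold change was -1.19 ± 1.17 (SE, edgeR adjusted p = 0.9998), and 0.027 without normal replicate 2.

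Negative log2 fold changes were found for 8 of the 9 genes, with a median of -0.61, beside 51.1% of all tested genes and a median of -0.04. That tally was not stable. With 1 library left out it was 6 of 9 without BPA replicate 1 and 5 of 9 without BPA replicate 2. The negative shares of all tested genes there were 60.8% and 56.7%. The tally was 4 of 9 without normal replicate 1 and 7 of 9 without normal replicate 2, beside 48.2% and 47.9%. It was 7 of 9 with DESeq2 size factors, where 47.3% of all tested genes were negative. With replicate number as a block it was 9 of 9, where 62.9% of all tested genes were negative. For single genes, Apaf1 alone kept its direction in all settings tried. The BPA libraries differed at least 10-fold for 5 of the 9 genes (Bcl2l1, Bax, Bid, Casp8 and Cycs), against 44.2% of all tested genes. The normal libraries did so for none of the 9, against 13.6% of all tested genes. Replicate 1 was the higher BPA library for Bcl2l1, Bid, Casp8, Cycs and Xiap, and replicate 2 for Mcl1, Bax, Bak1 and Apaf1.

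**Figure D2:**
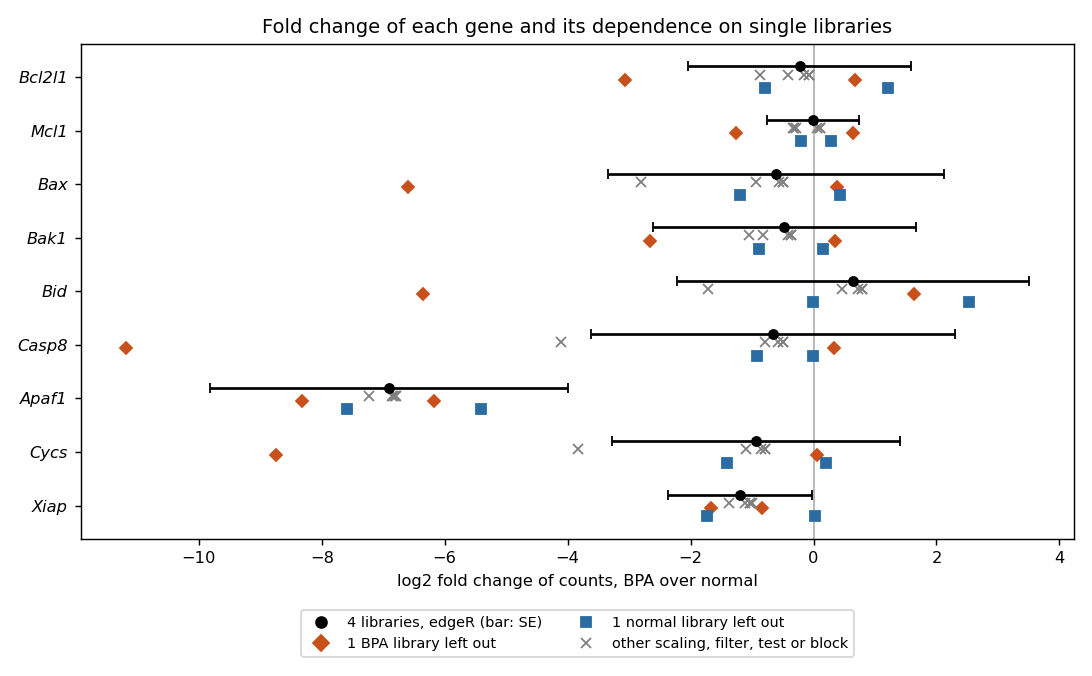
Log2 fold change of counts, BPA over normal, for each of the 9 genes, from edgeR on 4 libraries (black, with its SE), with 1 BPA library left out (orange diamonds), with 1 normal library left out (blue squares) and under the other settings (grey crosses). Apaf1 stays at -5.41 or below with any library left out, whereas the orange diamonds of Bid lie at -6.36 and 1.63.

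In centred log2(CPM + 1) over the 4 libraries, the tested gene nearest to each of the 9 was found by the root mean square difference. It was Rps20 for Bax (0.0379), Txn2 for Mcl1 (0.0628), Atf6b for Casp8 (0.0711), Klf3 for Cycs (0.0991), Ino80e for Apaf1 (0.107), Impdh2-ps for Bcl2l1 (0.119), Dbnl for Bid (0.132), Rars for Bak1 (0.140) and Cnn3 for Xiap (0.182). Such patterns were not rare, since between 33 and 374 tested genes lay within 0.5 of each of the 9. Ino80e, for example, had 0 and 2 reads in BPA, against 578 and 98 in normal cells, the same arrangement as Apaf1.

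For m6A the authors' list held 3331 differential peaks. It gave 1 value per condition in reads-per-million (RPM) for the immunoprecipitate (IP) and for the input, which carries no replicate error. These values are called pooled because their columns name no replicate, but how replicates were combined was not given. Cycs, Xiap and Bak1 had 1 peak each, or 3 of 9 genes, and 23.6% of the tested genes had a peak in the table. Bcl2l1, Mcl1, Bax, Bid, Casp8 and Apaf1 had none there, and since the table lists differential peaks alone, that does not show that they lack m6A. Coordinates are read as GRCm39, and neither the transcript part nor the sequence under the peaks is analysed here.

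The Cycs peak spanned 150 bases at chr6:50542499-50542648 on the minus strand. It held 635.05 RPM in BPA IP and 593.09 RPM in normal IP, against 877.52 RPM in BPA input and 1036.57 RPM in normal input. The ratio of IP to input was 0.724 in BPA and 0.572 in normal cells, so input exceeded IP in both conditions. The authors' deposited table gives a log2 fold change of 1.12 with a false discovery rate of 1.2e-49, whereas the log2 ratio of the 2 IP-to-input ratios was 0.34. Their difference of 0.78 recurs across the table: in the 826 peaks with at least 100 RPM in all 4 columns it ranged from 0.7768 to 0.7770. The pooled input at this peak was much alike in the conditions, while the gene's count was 783 reads in BPA replicate 1 and 1 read in BPA replicate 2.

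The Xiap peak spanned 175 bases at chrX:41183945-41184119 on the plus strand. It held 147.89 RPM in BPA IP and 399.1 RPM in normal IP, against 2.44 RPM in BPA input and 104.48 RPM in normal input. Both IP and input were thus lower in BPA. The ratio of IP to input was 60.6 in BPA and 3.82 in normal cells, and the authors' deposited table gives a log2 fold change of 4.76 with a false discovery rate of 6.38e-06. With 1 RPM added to each value, IP changed by -1.43 and input by -4.94 on the log2 scale, against medians of 0.18 and -1.35 over all peaks. The positive value for Xiap therefore accompanied a lower IP signal and an input near the smallest non-zero value of its column, 1.22 RPM. An input of 2.44 RPM or less in BPA was found in 26.8% of peaks. The gene itself had 518 and 180 reads in the BPA RNA-seq libraries.

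The Bak1 peak was a single block of 25 bases at chr17:27240165-27240189 on the minus strand. It held 0 RPM in BPA IP and 186.78 RPM in normal IP, and it is listed at 0 in both inputs. The authors' deposited table gives a log2 fold change of -11.28 with a false discovery rate of 1.12e-05. Normal IP was the one column with signal, and the same arrangement, with 0 in the other 3 columns, was shared by 43 of the 3331 peaks, Bak1 included. In the RNA-seq libraries Bak1 had 19 and 96 reads in BPA, against 217 and 72 in normal cells, so the gene was not at 0 in either condition.

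**Figure D3:**
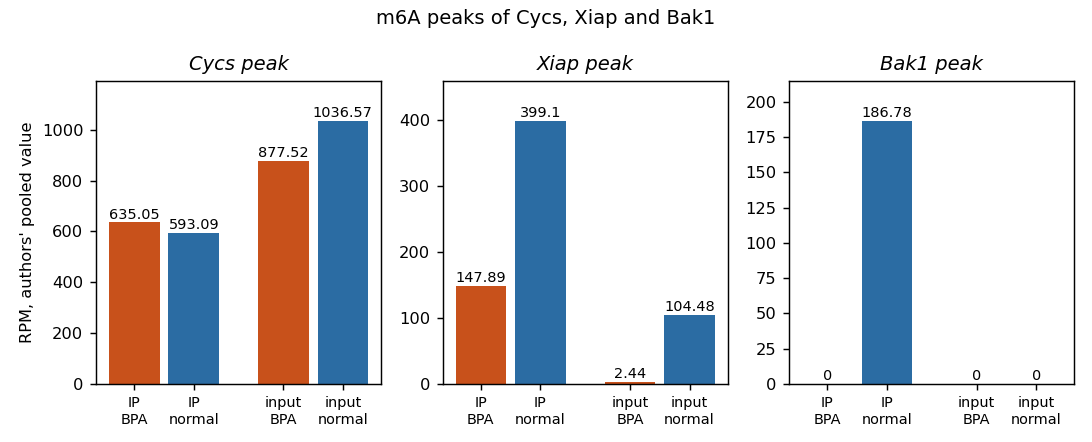
RPM of the Cycs, Xiap and Bak1 peaks in IP and in input, each with BPA (orange) left of normal (blue), as the authors' pooled values without replicate error, on a separate axis for each gene. The Cycs peak is alike in the conditions, the Xiap input bar is near 0 in BPA (2.44 RPM), and the Bak1 peak has signal in normal IP alone.

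Among 75 further genes of the apoptosis pathway, 61 were in the count table and 50 were tested. edgeR called 0 of the 50 at an adjusted p of 0.05. At an unadjusted p under 0.05 there were 2 with higher counts in BPA (Bcap31 and Usp9x) and 4 with lower counts (Bmf, Bnip3, Casp9 and Traf2), where 1.35% and 12.7% of all tested genes stood on those sides. For the listed genes these counts of 2 higher and 4 lower became 1 and 0 with the block and 1 and 1 with no filter. With the block, 147 of all 8645 genes tested were higher and 52 lower at that level. The split over all genes also had no settled direction, since 117 were higher and 1095 lower with the filter on low counts, but with that filter left out 336 were higher and 302 lower. DESeq2 called 2, Bcap31 (adjusted p = 0.0397) and Bnip3 (adjusted p = 0.0497), against 3.08% of all tested genes. Log2 fold changes were positive for 26 and negative for 24, with a median of 0.02, beside -0.04 for all tested genes. The counts became 21 and 29 with library totals, where 57.65% of all tested genes were negative. The groups did not overlap for 10 genes with higher and 12 with lower levels in BPA, where the shares over all tested genes were 12.8% and 27.2%.

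Bcap31, an endoplasmic reticulum protein cleaved by caspase-8, had 2358 and 2842 reads in BPA, against 904 and 712 in normal cells. Both BPA libraries were above both normal ones, and the log2 fold change was 2.25 ± 0.57 (SE, adjusted p = 0.329 in edgeR and 0.0397 in DESeq2), and from 1.69 to 2.65 with 1 library left out. Differential peaks were found for 16 of the 61 further genes that had a row of counts, where 23.6% of all tested genes had one. The 61 include genes that were not tested, so these sets are unlike. The 16 genes held 22 peaks. Of these peaks, 12 had a log2 fold change above 0 in the authors' deposited table, where 68.8% of all peaks did. The Bcap31 peak was 1 of the 22, with a negative log2 fold change of -1.61 in the authors' deposited table. It held 586.69 RPM in BPA IP and 486.47 RPM in normal IP, against 1830.82 RPM in BPA input and 289.96 RPM in normal input. Usp9x, a deubiquitinase that stabilizes MCL1, had 2195 and 1743 reads in BPA, against 1299 and 912 in normal cells, with a log2 fold change of 1.34 ± 0.52 (SE, adjusted p = 0.353 in edgeR).

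The anti-apoptotic Bcl2l2, which encodes BCL-w, had 9 and 1 reads in BPA, against 626 and 174 in normal cells, with a log2 fold change of -5.91 ± 2.75 (SE) and an adjusted p of 0.199 in DESeq2. Bcl2 had 1 and 383 reads in BPA, against 251 and 123 in normal cells. The effector homologue Bok had 161 and 1 reads in BPA libraries and 0 in both normal libraries, and was not tested. Of the BH3-only genes, Bmf had 0 reads in each BPA library, against 316 and 105 in normal cells, which is at least 101-fold lower against a floor of 3 counts over the BPA group. Bnip3, a mitophagy receptor gene, had 0 reads in each BPA library, against 256 and 360 in normal cells, at least 148-fold lower. These bounds cover counting error alone, and 24.6% of the genes in the table had 0 reads in both BPA libraries. The Bnip3 homologue Bnip3l had higher values in BPA, with 1528 and 2023 reads in BPA libraries and 1286 and 1091 in normal libraries (log2 fold change 1.14 ± 0.62, SE, adjusted p = 0.626 in edgeR, and from 0.50 to 1.59 with 1 library left out). Becn1 had 683 and 77 reads in BPA, against 1219 and 287 in normal cells.

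Casp9, the caspase that APAF1 activates, had 0 reads in each BPA library, against 252 and 41 in normal cells, at least 70.5-fold lower against that floor. It did not pass the test over all genes (edgeR adjusted p = 0.329), and being at 0 in both BPA libraries was shared by the 24.6% of genes given above. Casp12 had 214 and 308 reads in BPA, against 728 and 452 in normal cells. Cflar, which encodes the caspase-8 inhibitor FLIP, had 2925 and 749 reads in BPA, against 1914 and 761 in normal cells, and the death receptor kinase gene Ripk1 had 15 and 938 against 843 and 604.

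The death receptor adaptor gene Traf2 had 0 reads in each BPA library, against 316 and 67 in normal cells, at least 92.1-fold lower against the same floor. The receptor gene Tnfrsf1a had 220 and 316 reads in BPA, against 771 and 825 in normal cells, with no overlap. Tnfrsf12a had 1049 and 112 reads against 0 and 132. In CPM its values were 122 and 20.9 in BPA, against 0 and 16.9 in normal cells, also without overlap (log2 fold change 3.08 ± 3.07, SE). The mitochondrial genes Vdac1 and Aifm1 had standard errors under 0.5 on the log2 scale. Vdac1, an outer membrane channel gene, had 4238 and 1894 reads in BPA, against 6273 and 5340 in normal cells (log2 fold change -0.54 ± 0.39, SE), and Aifm1, of the apoptosis-inducing factor, had 5233 and 2170 against 4654 and 2772 (0.42 ± 0.41, SE). With 1 library left out these values ranged from -0.80 to -0.29 for Vdac1 and from 0.096 to 0.68 for Aifm1. Birc5, which encodes survivin, had 4237 and 1982 reads in BPA, against 5574 and 5380 in normal cells. The caspase substrate genes Sptan1 and Parp1 had log2 fold changes of -0.61 ± 0.54 and -0.00 ± 0.51 (SE), and with 1 library left out they ranged from -1.08 to 0.046 and from -0.48 to 0.36. With 1 library left out the sign also turned for Bcl2, Becn1, Ripk1, Mdm2 and Trp53. In the p53 arm, Trp53 had 1337 and 77 reads in BPA, against 343 and 17 in normal cells. Mdm2 had 870 and 1615 against 2741 and 1803, and Mdm4 1525 and 880 against 1614 and 863. In CPM, Mdm4 had 177.2 and 164.5 in BPA, against 139.9 and 110.7 in normal cells (log2 fold change 0.45 ± 0.62, SE). Its groups did not overlap in CPM, whereas those of Trp53 and Mdm2 did. None of the 6 tested p53 arm genes passed the edgeR test, as for all tested genes (0.00%). Their log2 fold changes were positive for 5 and negative for 1, where 51.1% of all tested genes were negative. That split became 4 and 2 without BPA replicate 2 and with replicate number as a block. In those settings 56.7% and 62.9% of all tested genes were negative.

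**Figure D4:**
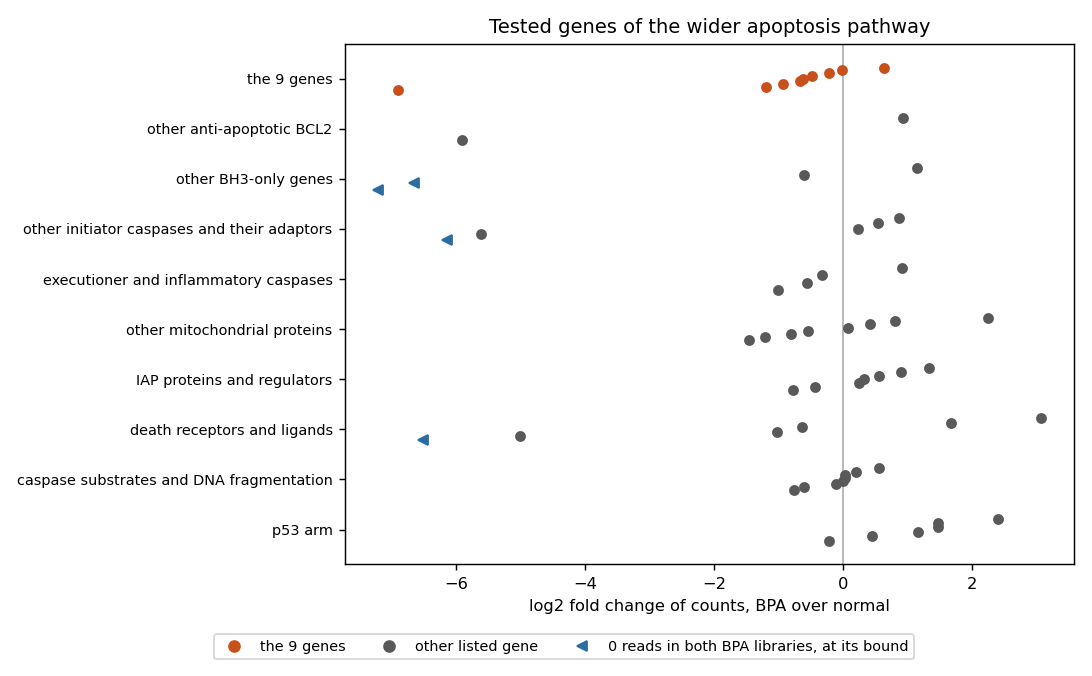
Log2 fold change of counts, BPA over normal, of each tested gene of the apoptosis pathway, with the 9 genes at the top (orange) and the other listed genes by role (grey). Blue triangles mark the genes at 0 reads in both BPA libraries (Bmf, Bnip3, Casp9 and Traf2), drawn at their bound against 3 counts, and most other genes lie between -2 and 2.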

How the data were processed

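The submitters' processing notes list fastp 0.20.1, HISAT2 2.2.1, featureCounts 2.0.1, DESeq2 1.38.3 and the builds GRCm39 and GRCh38, without their roles. The authors deposited whole read counts per Ensembl gene. The 4 count columns name condition and replicate but not the assay; they were taken to be RNA-seq, which the design text makes the input and for which featureCounts is the usual counter. The normal columns carry the name WT. Symbols were found for 98.9% of gene IDs. The RPM of each peak, its log2 fold change, p-value and false discovery rate were deposited by the authors. The RPM columns name no replicate and were taken to be pooled. How replicates were combined, the caller and the test were not given in the sources used here. Peaks were read as GRCm39, since no more than 11.7% of 3104 lay inside their gene's GRCm38 span.

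The test of counts was run in edgeR 4.0.16 under R 4.3.3 (TMM, filterByExpr, robust quasi-likelihood F test, Benjamini-Hochberg at 0.05 over 8645 genes), with DESeq2 1.42.0 as an alternative. The edgeR test was also run on simulated counts, with an outcome that is not reported here. Standard errors come from the F statistic. Exact intervals used scipy 1.17.1. The members, the gene lists and the alternatives were chosen with earlier results of these data known. Of the further pathway genes, those named were the 2 with the highest mean CPM and the 1 with the smallest edgeR p per list, and any called by DESeq2; 1 of those genes is not reported here. Other alternatives were library totals, DESeq2 size factors, no filter, abundant genes alone, a replicate block and leaving out each library.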

Additional observations from a re-analysis of the deposited data

How the results depend on the processing

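None of the 9 genes passed an adjusted p of 0.05 in any of the 10 other settings. Over all genes edgeR called 0 in the main setting, 1 with no low count filter, 1 with replicate number as a block, and from 0 to 4 with 1 library left out, and DESeq2 called 266. Of the further pathway genes DESeq2 called 2. At an unadjusted p under 0.05 there were 0 of the 9 in the main setting, 1 with DESeq2 and from 0 to 3 with 1 library left out, which were Casp8, Apaf1 and Cycs without BPA replicate 1, and 2, Bax and Apaf1, without BPA replicate 2. Over all genes 2878, 2080, 63 and 146 genes passed that level without BPA replicate 1, BPA replicate 2, normal replicate 1 and normal replicate 2, against 1212 in the main setting, 638 with no filter and 199 with the block. Where 1 library was left out, the lone library of its group was assumed to vary like the other group. With abundant genes alone (at least 1000 reads on average), where 56 genes passed, Mcl1 was the 1 gene of the 9 that could be fitted.

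Of 82 log2 fold changes of the 9 genes in other settings, 18 reversed sign, 14 of them with 1 library left out. Mcl1 became 0.11 with DESeq2 size factors, 0.048 with no filter and 0.11 with DESeq2, and Bid became -1.72 with the block. With 1 library left out the log2 values ranged from -3.07 to 1.21 for Bcl2l1, -1.26 to 0.65 for Mcl1, -6.60 to 0.43 for Bax, -2.66 to 0.36 for Bak1, -6.36 to 2.53 for Bid, -11.19 to 0.34 for Casp8, -8.75 to 0.20 for Cycs and -1.74 to 0.027 for Xiap. Casp8 at -11.19 rests on 0 reads and depends on the prior count. Apaf1 kept its sign. The causes were not tested. Log2 fold changes of single genes shifted from the main setting by a median of 0.14 with DESeq2 size factors and -0.22 with library totals. In the fit of abundant genes alone the median shift of those genes was -0.27. Same-numbered libraries did not deviate together (correlation 0.00409), so the numbers were not taken as pairs. The 3 peaks held at a false discovery rate of 0.01, where the largest value over all peaks was 0.0147. Matching by gene ID could not differ, since the main match also went by gene ID. With 0.5 in place of 1 RPM added, the change of IP over input was -8.55 in place of -7.55 for Bak1, 3.73 in place of 3.51 for Xiap and 0.34 in both cases for Cycs.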
